A study of Homo sapiens with 15 samples.

Results

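P3H2 and 9 other genes for enzymes that modify collagen were followed across 5 conditions of the human cutaneous squamous carcinoma line HSC-5 (HSC5 in the labels). These 10 genes, of 60649 in the count tables, are the prolyl 3-hydroxylases P3H1, P3H2 and P3H3, the catalytic subunits P4HA1 and P4HA2 of the prolyl 4-hydroxylases, the lysyl hydroxylases PLOD1, PLOD2 and PLOD3, and the lysyl oxidases LOX and LOXL2. P3H2 was chosen by its rise against sgNeg in both knockouts, so its values against sgNeg are given as a description with no test, and it is left out of every count of genes called against sgNeg. The other 9 belong to the same enzyme families.

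Bulk RNA was sequenced from 15 libraries, 3 per condition, named biological replicates in the labels, which do not say whether they came from separate cultures. The control, sgNeg, carried the empty vector and is labelled wild type (WT). Both sgPRMT5-1 and sgPRMT5-2 target PRMT5 (PRMT5 Knockout in the labels), and both sgWDR77-1 and sgWDR77-2 target WDR77 (WDR77 Knockout); the series text speaks of a knockdown by sgRNA instead. All 5 conditions share the Cas9-expressing line and the label Neomycin as treatment. Whether the cells were pools or clones is not stated, and in bulk RNA fewer cells holding a transcript and less of it per cell cannot be told apart. Reads on genes ran from 5146711 to 6730428 per library, with a median of 5806938. Levels are read counts scaled to library size (CPM), given as mean ± SD over libraries, and fold changes are on the log2 scale ± SE. The pooled comparisons, PRMT5KO and WDR77KO, each set 6 libraries of both sgRNAs against the 3 of sgNeg and ask how targeting either gene changes expression. By Western blot, the paper reports that depleting PRMT5 also lowered WDR77 protein, and the reverse. Neither knockout need therefore be the loss of a single protein. The pooled comparisons take the libraries of both sgRNAs as independent replicates, so their p values do not fully cover the spread between sgRNAs. Every comparison with sgNeg uses the same 3 control libraries.

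PRMT5 is an arginine methyltransferase, and WDR77 is the partner it needs for full activity in the methylosome. Collagen chains are modified in the endoplasmic reticulum before they fold: prolyl 4-hydroxylation makes the triple helix stable at body temperature, prolyl 3-hydroxylation marks a small number of prolines, and lysyl hydroxylation prepares sites for sugars and cross-links. All 3 kinds of hydroxylase use oxygen, iron and 2-oxoglutarate, with ascorbate keeping the iron reduced. LOX and LOXL2 act outside the cell, where these copper enzymes oxidise lysines so that collagen fibres and basement membranes become cross-linked. In skin, fibroblasts make most of the fibrillar collagen, while keratinocytes and carcinoma cells lay down basement membrane collagen IV, a known substrate of P3H2.

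The sgRNA targets showed the labels in every library. PRMT5 stood at 59.1, 49.6 and 67.8 CPM in sgNeg, at 33.0, 35.8 and 41.4 CPM with sgPRMT5-1, and at 44.2, 44.5 and 39.4 CPM with sgPRMT5-2. WDR77 stood at 125, 114 and 119 CPM in sgNeg, at 30.8, 52.0 and 53.3 CPM with sgWDR77-1, and at 26.6, 24.9 and 22.0 CPM with sgWDR77-2. All 6 libraries of each knockout lay under all 3 sgNeg libraries for their own target. The log2 fold change was -0.57 ± 0.12 for PRMT5 in PRMT5KO (adjusted p = 0.00874) and -1.86 ± 0.22 for WDR77 in WDR77KO (adjusted p = 9.0e-05). Part of each target's transcript thus remained in the libraries.

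Markers of the labelled cell type were present. The 10 squamous epithelial markers summed to between 3011 and 4033 CPM, with KRT17 the most abundant over the libraries, while KRT14 had only 1 to 4 reads per library. KRT5, a basal keratin, fell by 2.41 in PRMT5KO (SE 0.47, adjusted p = 0.00650) and by 3.42 in WDR77KO (SE 0.27, adjusted p = 1.6e-06) on the log2 scale. KRT6A and DSG3 were also lower in both knockouts, and CDH1 was higher in both. SFN was higher in PRMT5KO, by 0.40 ± 0.074 (adjusted p = 0.00551). KRT17 stood at 807 ± 72.1 CPM in sgNeg, 805 ± 59.9 with sgWDR77-1 and 1431 ± 19 with sgWDR77-2. In pooled WDR77KO its log2 fold change of 0.42 ± 0.20 did not pass (adjusted p = 0.317). Fibroblasts are a main source of these enzymes in tissue, and the 10 fibroblast markers summed to only 6.68 to 16.4 CPM, nearly all of it COL1A1. COL1A2 had no read in 15 of 15 libraries, DCN none in 14 and PDGFRA none in 13. The 4 endothelial markers summed to 12.7 to 36.1 CPM, mostly CDH5, with KDR at 0 in all 15; the sgWDR77-1 libraries were highest, at 34.2, 31.3 and 36.1 CPM, and the other 12 stood at 24.9 CPM or less. The 4 leukocyte markers summed to 0.360 to 1.83 CPM, mostly CD14, with CD3E at 0, and the 4 melanocyte markers to 2.55 to 7.48 CPM, mostly PMEL, with TYR and DCT at 0. The part of the keratin changes in the values of the collagen enzymes was not tested.

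Promoter windows in RefSeq (GRCh38.p14) were found for 9 of the 10 genes, all but LOXL2. These windows run from 250 bases before to 50 after the first listed start site of each gene. They are shown for P3H2, which was higher in both knockouts, for P3H1, the other prolyl 3-hydroxylase with reads, and for P4HA1 and LOX, which lay lower with sgPRMT5-2. P3H2 lies at chr3:190122229-190122528, P3H1 at chr1:42766979-42767278, P4HA1 at chr10:73096817-73097116 and LOX at chr5:122078210-122078509, all on the minus strand and all written 5′ to 3′. Capitals mark ACGTG on either strand (CACGT when read on the other), a form of the core letters bound by hypoxia-inducible factors. The other form, GCGTG, was not searched or marked, and it does stand in the P3H2 and P3H1 windows.
P3H2: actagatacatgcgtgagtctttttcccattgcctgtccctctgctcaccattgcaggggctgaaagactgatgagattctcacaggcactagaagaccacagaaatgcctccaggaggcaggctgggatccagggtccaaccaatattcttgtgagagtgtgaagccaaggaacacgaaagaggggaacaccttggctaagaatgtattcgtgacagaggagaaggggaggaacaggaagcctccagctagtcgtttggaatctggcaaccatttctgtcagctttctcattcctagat
P3H1: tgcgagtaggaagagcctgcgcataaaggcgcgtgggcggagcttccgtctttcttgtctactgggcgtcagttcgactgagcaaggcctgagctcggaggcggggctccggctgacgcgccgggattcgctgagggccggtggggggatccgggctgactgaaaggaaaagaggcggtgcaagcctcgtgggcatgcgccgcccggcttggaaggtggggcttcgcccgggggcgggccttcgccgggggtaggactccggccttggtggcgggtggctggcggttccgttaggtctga
P4HA1: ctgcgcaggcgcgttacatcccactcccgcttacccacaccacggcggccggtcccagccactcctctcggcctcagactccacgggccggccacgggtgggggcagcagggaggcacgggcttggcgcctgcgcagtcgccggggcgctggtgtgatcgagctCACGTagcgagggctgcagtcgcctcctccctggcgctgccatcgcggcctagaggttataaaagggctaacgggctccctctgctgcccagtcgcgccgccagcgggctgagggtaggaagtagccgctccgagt
LOX: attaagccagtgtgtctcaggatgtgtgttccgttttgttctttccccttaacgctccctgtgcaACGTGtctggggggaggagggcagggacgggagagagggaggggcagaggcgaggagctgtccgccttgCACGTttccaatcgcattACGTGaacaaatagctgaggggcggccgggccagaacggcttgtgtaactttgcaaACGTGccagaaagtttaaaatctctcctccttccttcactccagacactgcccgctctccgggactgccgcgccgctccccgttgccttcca
ACGTG occurs 4 times in the LOX window, 2 times in that of PLOD2 and 1 time in that of P4HA1, and in none of the other 6. Of all 35116 promoters of this length, 21.4% hold ACGTG. The window of P3H2 holds none of the 5 motifs searched on both strands, neither ACGTG, nor the E-box CACGTG that contains it (in 7.26% of promoters), nor the TATA box as TATAAA (11.5% of promoters), nor the GC box as GGGCGG (45% of promoters), nor the AP-1 letters as TGANTCA (7.71% of promoters). P3H2 has 4 CpG in its window, and 29.6% of promoters have at most this number, against 31 CpG and 3 GGGCGG in P3H1. P4HA1 holds TATAAA 1 time and LOX holds GGGCGG 1 time. GGGCGG was also found 4 times each in PLOD1 and PLOD3 and 1 time in PLOD2. A match is a run of letters and not a known binding site, and the absence of a match covers these windows only. Any other start site of a gene was not examined. The P4HA2 window, at chr5:132227042-132227341, lies inside its gene, which spans 132190147 to 132295315.

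P3H2 (ENSG00000090530.10), the prolyl 3-hydroxylase of basement membrane collagen, lies on chromosome 3 from 189956728 to 190122437 of hg38, on the minus strand. In sgNeg it stood at 57.4, 56.9 and 58.8 CPM. With sgWDR77-1 it stood at 105, 101 and 87.6 CPM, and with sgWDR77-2 at 138, 107 and 111 CPM. With sgPRMT5-1 it stood at 119.8, 132 and 158 CPM, and with sgPRMT5-2 at 219.8, 219.8 and 242 CPM. Every one of the 12 knockout libraries was above the highest sgNeg library, which is the pattern by which the gene was picked. From low to high, the means were 57.7 ± 0.983 CPM in sgNeg, 97.7 ± 8.96 in sgWDR77-1, 118.8 ± 16.6 in sgWDR77-2, 137 ± 19.7 in sgPRMT5-1 and 227 ± 12.8 in sgPRMT5-2 (n = 3 each). Of the neighbours in this order, only sgWDR77-2 and sgPRMT5-1 overlapped. As multiples of the sgNeg mean these levels were 1.69, 2.06, 2.37 and 3.94. The fitted log2 fold changes were 1.59 in PRMT5KO and 0.90 in WDR77KO, and over all 18 settings tried they ran from 1.5 to 1.70 and from 0.83 to 0.95.

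**Figure D1:**
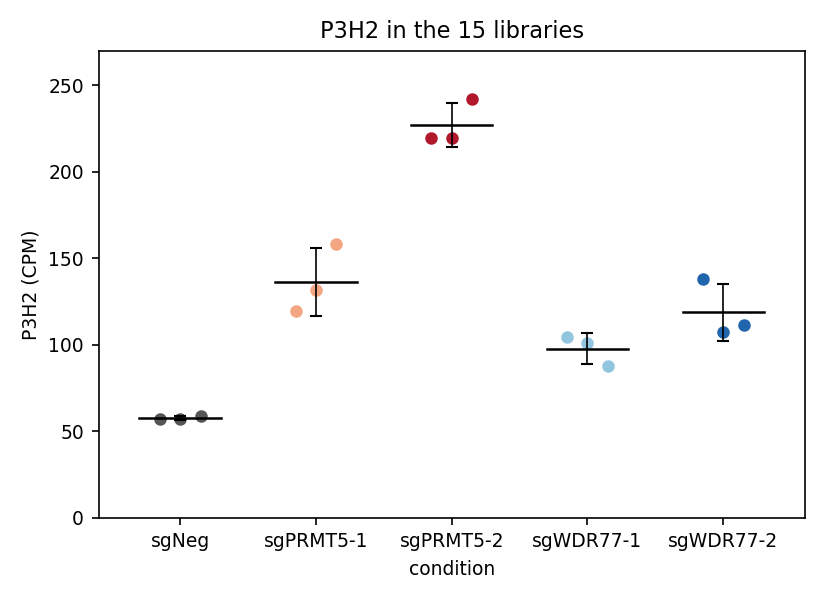
P3H2 level in CPM (vertical axis) in each of the 5 conditions. Points are libraries, lines are means of 3 and bars are the SD; sgNeg libraries lie between 56.9 and 58.8 CPM, and the sgPRMT5-2 libraries, between 219.8 and 242 CPM, lie above all others.

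The tests that leave sgNeg out ask whether the knockouts, or the sgRNAs of a gene, differ from each other. P3H2 was higher in PRMT5KO than in WDR77KO by 0.71 ± 0.16 (adjusted p = 0.00944), and 4 of 6 PRMT5KO libraries were above all 6 WDR77KO libraries. That p value counts 6 libraries a side, though they come from 2 sgRNAs each, and libraries of sgPRMT5-1 and sgWDR77-2 overlapped. Between the PRMT5 sgRNAs, it was higher with sgPRMT5-2 by 0.75 ± 0.086 (adjusted p = 2.8e-06), in 3 of 3 libraries. Between the WDR77 sgRNAs the difference was 0.26 ± 0.14, with sgWDR77-2 higher in 3 of 3 libraries, and did not pass (adjusted p = 0.446). For the target PRMT5 itself, the difference between sgPRMT5-2 and sgPRMT5-1 was 0.23 ± 0.11 and did not pass (adjusted p = 0.146). It did without replicate 3 of sgPRMT5-1 (0.0118 to 0.479). The target WDR77 was at -0.86 ± 0.21 with sgWDR77-2 against sgWDR77-1, lower in 3 of 3 libraries, and did not pass (adjusted p = 0.177). That value passed in a fit of all 15 libraries, with no filter and without replicate 1 of sgWDR77-1 (0.000554 to 0.729).

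P3H1 (ENSG00000117385.16, chromosome 1, 42746335 to 42767084), which with CRTAP and PPIB forms the complex that 3-hydroxylates fibrillar collagens, went the other way from P3H2 with sgPRMT5-2. In sgNeg it stood at 41.0, 38.5 and 40.1 CPM. With sgPRMT5-1 it stood at 36.2, 33.6 and 34.9 CPM and with sgPRMT5-2 at 29.4, 26.0 and 26.7 CPM. All 6 PRMT5 libraries were under all sgNeg libraries, and those of sgPRMT5-2 were the lowest. With sgWDR77-1 it stood at 26.2, 34.1 and 42.3 CPM, a spread that overlaps sgNeg, and with sgWDR77-2 at 34.9, 32.0 and 31.9 CPM. P3H1 fell by 0.55 on the log2 scale with sgPRMT5-2 (SE 0.10, adjusted p = 0.000320). In pooled PRMT5KO the log2 fold change was -0.38 ± 0.12 (adjusted p = 0.0387), and in WDR77KO -0.26 ± 0.13 (adjusted p = 0.362). The pooled call was lost without replicate 1, 2 or 3 of sgNeg, without replicate 1, 2 or 3 of sgPRMT5-2, with no filter on low counts and with the replicate block (adjusted p from 0.0155 to 0.123 over all alternatives). Between the PRMT5 sgRNAs P3H1 was lower with sgPRMT5-2, -0.35 ± 0.11 (adjusted p = 0.0294), in 3 of 3 libraries; this call was lost without any of replicates 1 and 2 of sgPRMT5-1 and 1, 2 and 3 of sgPRMT5-2, with no filter and in a fit of all 15 libraries (0.0118 to 0.120). The difference between the knockouts was -0.10 ± 0.12 (adjusted p = 0.584).

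Per kilobase of exon, P3H2 stood at 1.76 ± 0.051 times P3H1 in sgNeg. This ratio of levels was 3.65 ± 1.16 with sgWDR77-1, 4.37 ± 0.380 with sgWDR77-2, 4.76 ± 0.741 with sgPRMT5-1 and 10.1 ± 0.961 with sgPRMT5-2. The ratio contains the rise that P3H2 was selected on, and is given with no test. P3H3 (ENSG00000110811.20), the other prolyl 3-hydroxylase, had 0 reads in all 15 libraries, of 86823722 reads on genes, which allows a level of up to 0.0346 CPM over the libraries together (counting error only). P3H3 shares 114 exon bases with GPR162. Prolyl 3-hydroxylase transcripts in these libraries were therefore those of P3H1 and P3H2.

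P4HA1 (ENSG00000122884.13, chromosome 10, 73007217 to 73096974), the main catalytic subunit of prolyl 4-hydroxylase in many cells, was lower with sgPRMT5-2. In sgNeg it stood at 183, 141 and 145 CPM, and with sgPRMT5-1 at 164, 148 and 127 CPM. With sgPRMT5-2 it stood at 106, 113.5 and 103.5 CPM, under every library of the former groups. With sgWDR77-1 it stood at 100.3, 114 and 131 CPM and with sgWDR77-2 at 103, 118 and 158 CPM, the last within the sgNeg range. P4HA1 fell by 0.54 on the log2 scale with sgPRMT5-2 (SE 0.091, adjusted p = 0.000103), and was lower than with sgPRMT5-1, -0.44 ± 0.086 (adjusted p = 0.00133), except in a fit of all 15 libraries (adjusted p = 0.0557, with the range over alternatives from 4.1e-09 to that value). In the pooled comparisons its log2 fold change was -0.32 ± 0.14 for PRMT5KO (adjusted p = 0.117) and -0.38 ± 0.14 for WDR77KO (adjusted p = 0.162), neither past the threshold. Without replicate 1 of sgPRMT5-1, the PRMT5KO value did pass (0.0246, against up to 0.394 in the other alternatives), as did the sgWDR77-2 value without replicate 3 of that sgRNA (0.0450, up to 0.509 elsewhere). With sgWDR77-1 all 3 libraries were under sgNeg, -0.41 ± 0.14 (adjusted p = 0.137), which passed in a fit of all 15 libraries only (0.0491 to 0.438). P4HA1 shares 47 exon bases with a long noncoding RNA on the other strand. P4HA2 (ENSG00000072682.20), the second catalytic subunit, varied little: its libraries ran from 43.5 to 56.2 CPM, its group means from 49.2 to 53.3 CPM, and it passed in none of the 9 comparisons by limma voom, with 0 of them at an unadjusted p under 0.05, nor under any alternative. P4HA2 shares 548 exon bases with its antisense transcript P4HA2-AS1.

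Among the lysyl hydroxylases, PLOD3 was higher in PRMT5KO than in WDR77KO. PLOD3 (ENSG00000106397.12, chromosome 7, 101205977 to 101218420), which also adds sugars to hydroxylysine, stood at 62.5, 59.2 and 65.3 CPM in sgNeg. With sgPRMT5-1 it stood at 67.2, 70.4 and 86.1 CPM and with sgPRMT5-2 at 76.5, 84.8 and 83.9 CPM, all above sgNeg. With sgWDR77-1 it stood at 49.7, 54.0 and 53.3 CPM, all under sgNeg, and with sgWDR77-2 at 72.4, 57.4 and 52.0 CPM, on both sides of it. The difference between the knockouts was 0.47 ± 0.099 (adjusted p = 0.00654), with 4 of 6 PRMT5KO libraries above all of WDR77KO. Against sgNeg, PLOD3 rose by 0.38 ± 0.085 with sgPRMT5-2 (adjusted p = 0.00124) and by 0.31 ± 0.10 in pooled PRMT5KO (adjusted p = 0.0498), and stood at -0.15 ± 0.12 in WDR77KO (adjusted p = 0.598). The pooled call was lost without replicates 1, 2 or 3 of sgNeg, 3 of sgPRMT5-1, or 1, 2 or 3 of sgPRMT5-2, with no filter, with library totals or median-of-ratios scaling, and with the replicate block (0.0140 to 0.173). PLOD3 shares 102 exon bases with ZNHIT1.

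PLOD1 (ENSG00000083444.17), which hydroxylates lysines of the helix, and PLOD2 (ENSG00000152952.12), which hydroxylates those of the telopeptides, did not pass against sgNeg in either pooled knockout. PLOD1 ran from 96.1 to 139.7 CPM over the libraries and PLOD2 from 194 to 302 CPM. Both differed between the PRMT5 sgRNAs: PLOD1 was lower with sgPRMT5-2, -0.32 ± 0.074 (adjusted p = 0.00458) and so was PLOD2, -0.30 ± 0.077 (adjusted p = 0.00955), each in 3 of 3 libraries. A fit of all 15 libraries lost both calls, and that of PLOD2 was also lost without replicate 2 of sgPRMT5-1 or replicate 1 or 2 of sgPRMT5-2 (0.000404 to 0.0696 for PLOD1 and 2.5e-07 to 0.134 for PLOD2). Against sgNeg, PLOD1 passed with sgPRMT5-2 only without replicate 2 of sgNeg or with library totals (0.00153 to 0.255), and PLOD2 with sgWDR77-2 only without replicate 1 of that sgRNA (0.0311 to 0.775). The PLOD2 group mean was highest with sgWDR77-1, 271 ± 32.1 CPM, against 211 ± 14.2 CPM in sgNeg, a log2 fold change of 0.39 ± 0.12 that did not pass (adjusted p = 0.117).

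LOX (ENSG00000113083.15, chromosome 5, 122063195 to 122078413), the lysyl oxidase that cross-links fibrillar collagen and elastin, was lower in both knockouts, at low counts of 7 to 64 reads per library. In sgNeg it stood at 10.8, 6.90 and 7.62 CPM. With sgPRMT5-1 it stood at 6.11, 6.28 and 2.91 CPM and with sgPRMT5-2 at 2.33, 2.38 and 3.05 CPM. With sgWDR77-1 it stood at 2.40, 2.04 and 3.47 CPM and with sgWDR77-2 at 1.35, 3.36 and 4.32 CPM. All 12 knockout libraries were under the lowest sgNeg library, and replicates 1 and 2 of sgPRMT5-1 were the nearest to it. LOX fell by 1.61 on the log2 scale in WDR77KO (SE 0.29, adjusted p = 0.00495) and by 1.23 in PRMT5KO (SE 0.29, adjusted p = 0.0156), the latter not past the threshold without replicate 1 of sgNeg (0.0884, the highest of a range from 0.00235). The difference between the knockouts was 0.39 ± 0.32 (adjusted p = 0.424). By sgRNA, LOX fell by 1.67 with sgPRMT5-2 (SE 0.29, adjusted p = 0.000136), by 1.63 with sgWDR77-1 (SE 0.33, adjusted p = 0.0221) and by 1.57 with sgWDR77-2 (SE 0.36, adjusted p = 0.0216), while with sgPRMT5-1 it was -0.77 ± 0.28 (adjusted p = 0.143). The sgWDR77-1 call was lost without replicate 1 or 3 of sgNeg or 2 of sgWDR77-1 (0.00665 to 0.102), and the sgWDR77-2 call without replicate 1 of sgNeg, 1 or 2 of sgWDR77-2, or with the replicate block (0.00685 to 0.0732). Between the PRMT5 sgRNAs the difference, -0.90 ± 0.33, did not pass (adjusted p = 0.0620), but did with limma-trend, with the replicate block and without replicate 3 of sgPRMT5-1 (0.00101 to 0.217). LOX shares 138 exon bases with SRFBP1 on the other strand.

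LOXL2 (ENSG00000134013.16), a lysyl oxidase that cross-links basement membrane collagen IV, was higher with both PRMT5 sgRNAs. In sgNeg it stood at 169.7, 132 and 136 CPM. With sgPRMT5-1 it stood at 205, 222 and 204 CPM and with sgPRMT5-2 at 194, 198 and 208 CPM, all above sgNeg. With sgWDR77-1 it stood at 122, 148 and 147 CPM, within or under the sgNeg range, and with sgWDR77-2 at 177, 179 and 219 CPM, above it. LOXL2 rose by 0.48 ± 0.084 in PRMT5KO (adjusted p = 0.00417), by 0.52 ± 0.096 with sgPRMT5-1 (adjusted p = 0.00442) and by 0.46 ± 0.085 with sgPRMT5-2 (adjusted p = 0.000253). In WDR77KO its log2 fold change was 0.17 ± 0.15 (adjusted p = 0.657). With sgWDR77-2 it was 0.39 ± 0.11 (adjusted p = 0.0565), which passed without replicate 1 of sgNeg or of sgWDR77-2, in a fit of all 15 libraries, with no filter and with upper-quartile scaling (0.0193 to 0.181). The knockouts differed by 0.33 ± 0.11 (adjusted p = 0.0458), a call lost with library totals, with median-of-ratios scaling, with the replicate block and without any of 10 libraries, namely all 3 of sgPRMT5-1, of sgPRMT5-2 and of sgWDR77-1 and replicate 2 of sgWDR77-2 (0.00260 to 0.133 over all alternatives). LOXL2 shares 120 exon bases with ENTPD4 and 178 with LOXL2-AS1. LOX and LOXL2 thus stood on opposite sides of sgNeg in all 6 PRMT5KO libraries.

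**Figure D2:**
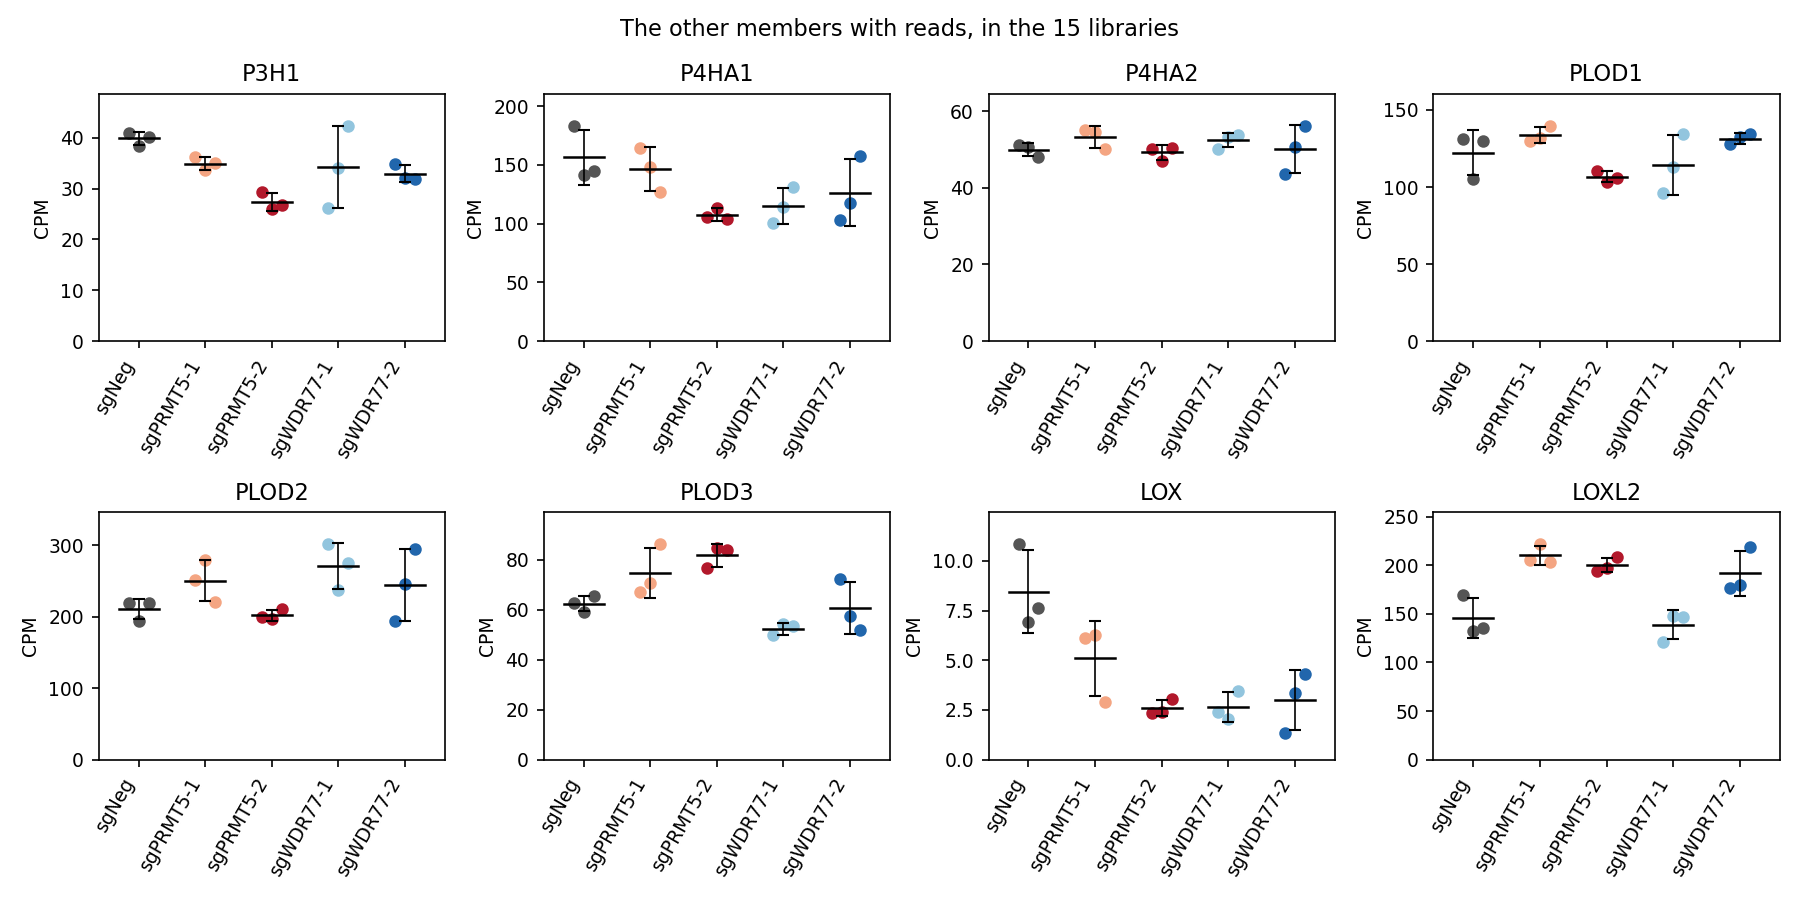
Levels in CPM (vertical axes) of the 8 other genes with reads, in each of the 5 conditions. Points are libraries, lines are means of 3 and bars are the SD; LOX lies under sgNeg in all 12 knockout libraries, and LOXL2 and PLOD3 lie above it in all 6 PRMT5 libraries.

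**Figure D3:**
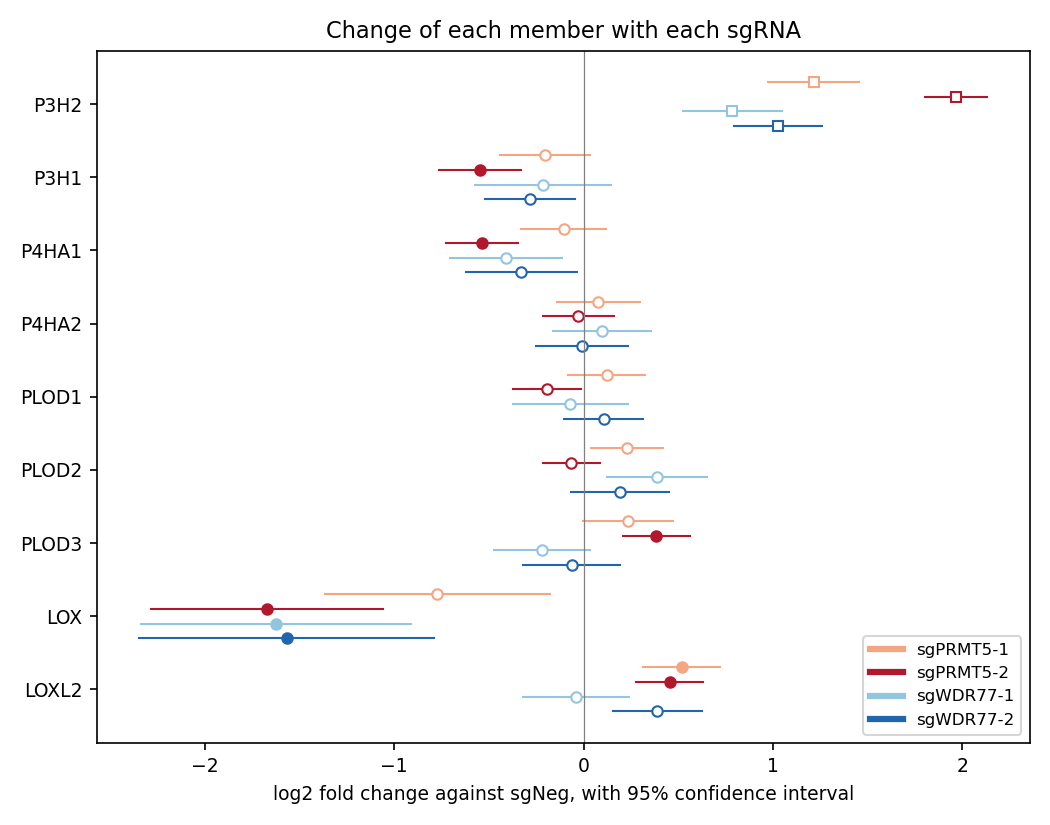
The log2 fold change against sgNeg (horizontal axis) with its 95% confidence interval for each gene and sgRNA, all sharing the 3 sgNeg libraries. Filled points are past the threshold and open points are not; the open squares of P3H2, from 0.79 with sgWDR77-1 to 1.97 with sgPRMT5-2, are not tested.

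Of the 10 genes, 9 passed the count filter in all 9 comparisons with reads in all 15 libraries, so none passed through a single high group. In PRMT5KO, 4 of the 8 tested without P3H2 passed, 2 higher and 2 lower, against 17.0% of all genes; that count was 1 without replicate 1 of sgNeg, and 2 without replicate 2 or 3 of sgNeg or 1, 2 or 3 of sgPRMT5-2. In WDR77KO, 1 of 8 passed, against 3.39% of all genes. Between the knockouts, 3 of 9 passed, all higher in PRMT5KO, against 14.0% of all genes. With sgPRMT5-1, 1 of 8 passed against 3.76% of all genes, and with sgPRMT5-2, 5 of 8 against 40.1%. With sgWDR77-1, 1 of 8 passed against 2.71% of all genes, with none left without replicate 1 or 3 of sgNeg or 2 of sgWDR77-1. With sgWDR77-2, 1 of 8 passed against 4.97% of all genes, with 0 without its replicate 2 and 2 without its replicate 1 or 3. Between the PRMT5 sgRNAs, 5 of 9 passed against 19.2% of all genes, P3H2 higher and 4 lower with sgPRMT5-2, and 3 passed without replicate 2 of sgPRMT5-1 or 1 or 2 of sgPRMT5-2. Between the WDR77 sgRNAs, 0 of 9 passed by limma voom, and 0 by limma-trend, against 0.121% of all genes; 1 gene, LOXL2, was at an unadjusted p under 0.05. These shares of all genes are those with every library in, and they moved as well. Of all genes, 385 passed with sgWDR77-1, but 56 without replicate 3 of sgNeg and 1003 without replicate 1 of sgWDR77-1. With sgPRMT5-1, 530 passed, but 211 without its replicate 2, and with sgWDR77-2, 698, but 293 without its replicate 2. For the pair of PRMT5 sgRNAs 2690 passed, from 1429 without replicate 1 of sgPRMT5-1 to 4711 without its replicate 3. For the pair of WDR77 sgRNAs 17 passed, from none without replicate 1 of sgWDR77-2 to 156 without replicate 1 of sgWDR77-1. A fit of all 15 libraries gave 1333 with sgWDR77-1, 1078 for the PRMT5 pair and 342 for the WDR77 pair, library totals gave 11 for the latter, and the replicate block gave 1427 with sgPRMT5-1 and 369 with sgWDR77-2. With no filter the counts of sgPRMT5-1 and of the WDR77 pair were also higher. The median log2 fold change of the genes tested was -0.0080 in PRMT5KO and -0.071 in WDR77KO, beside -0.0058 and 0.0029 over all genes.

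Per kilobase of exon, the level in sgNeg was highest for P4HA1, at 50.5 ± 7.55 CPM per kb, followed by LOXL2 at 24.4 ± 3.43 and PLOD1 at 23.0 ± 2.75. PLOD2 stood at 14.5 ± 0.977, PLOD3 at 11 ± 0.541, P3H2 at 10.3 ± 0.176, P3H1 at 5.89 ± 0.189, P4HA2 at 4.93 ± 0.162 and LOX at 1.51 ± 0.374 CPM per kb. P3H2 thus ranked 6 in sgNeg. With sgPRMT5-2 it ranked 1, at 40.8 ± 2.3 CPM per kb, ahead of P4HA1 at 34.8 ± 1.70 and LOXL2 at 33.4 ± 1.22. It ranked 4 with sgPRMT5-1 and with sgWDR77-2, and 5 with sgWDR77-1. The ranks of P3H2 in sgNeg and with sgPRMT5-2 were the same with the length of the longest transcript, which exchanges PLOD1 and LOXL2 in sgNeg, and P4HA1 with LOXL2 and PLOD2 with PLOD3 under sgPRMT5-2. By that length P3H2 ranked 5 with each of the other sgRNAs.

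Collagen chains are what these enzymes modify, and 16 of 21 chains listed passed the filter. In PRMT5KO 2 rose and 6 fell, where 17.0% of all genes passed, and in WDR77KO 1 rose and 3 fell, where 3.39% did. Of the 8 calls in PRMT5KO, only COL5A1, COL4A2 and COL12A1 held in every leave-out: 3 passed without replicate 2 of sgNeg or 1 or 2 of sgPRMT5-2, 4 without replicate 1 of sgNeg, and 5 without replicate 3 of sgNeg, sgPRMT5-1 or sgPRMT5-2, or with the replicate block. Their median log2 fold change was -0.49 in PRMT5KO and -0.21 in WDR77KO, beside -0.0058 and 0.0029 over all genes. The chains of collagen IV, the basement membrane network, did not all lie on the same side: the means of COL4A1, COL4A2 and the low-count COL4A4 were under sgNeg, and those of COL4A5 and COL4A6 above it. COL4A2 stood at 164 ± 2.97 CPM in sgNeg, 124 ± 22.8 with sgPRMT5-1, 95.9 ± 3.93 with sgPRMT5-2, 35.1 ± 3.34 with sgWDR77-1 and 41.1 ± 2.96 with sgWDR77-2. It fell by 0.61 in PRMT5KO (SE 0.12, adjusted p = 0.00648) and by 2.11 in WDR77KO (SE 0.11, adjusted p = 1.8e-08) on the log2 scale, in 6 of 6 libraries each. Its partner chain COL4A1 fell by 1.77 in WDR77KO (SE 0.19, adjusted p = 4.9e-05); its PRMT5KO value of -0.67 ± 0.18 (adjusted p = 0.0250) did not pass without replicate 1 or 2 of sgNeg or of sgPRMT5-2 (0.000407 to 0.113). COL5A1, a chain that regulates fibril diameter, fell by 2.24 in PRMT5KO (SE 0.35, adjusted p = 0.00238) and by 3.14 in WDR77KO (SE 0.27, adjusted p = 4.3e-06). COL12A1, a fibril-associated chain, rose by 1.18 ± 0.19 in pooled PRMT5KO (adjusted p = 0.00262). It stood at 104 ± 12.9 CPM in sgNeg, 190 ± 13.9 with sgPRMT5-1 and 296.5 ± 23.5 with sgPRMT5-2. The knockouts differed for 5 chains, 4 higher and 1 lower in PRMT5KO, where 14.0% of all genes passed, with COL4A2 higher by 1.51 ± 0.12 (adjusted p = 8.7e-07) and COL4A1 by 1.12 ± 0.21 (adjusted p = 0.00328). COL4A5 stood at 48.0 ± 4.88 CPM in sgNeg, 55.1 ± 2.34 with sgPRMT5-1, 52.9 ± 3.79 with sgPRMT5-2, 66.9 ± 7.67 with sgWDR77-1 and 66.8 ± 2.54 with sgWDR77-2. Its rise of 0.48 ± 0.11 in WDR77KO (adjusted p = 0.0270) was lost without replicate 1 or 3 of sgNeg or replicate 2 of either WDR77 sgRNA, with no filter and with the replicate block (0.00268 to 0.181). COL4A6 rose by 0.58 ± 0.18 in PRMT5KO (adjusted p = 0.0381), a call lost without replicate 1, 2 or 3 of sgNeg, 3 of sgPRMT5-1 or 1 or 2 of sgPRMT5-2, with library totals, with no filter and with the replicate block (0.0107 to 0.179). COL4A4 (-0.95 ± 0.31, adjusted p = 0.0496) was called in PRMT5KO in none of the 9 leave-outs, whichever library of sgNeg, sgPRMT5-1 or sgPRMT5-2 was left out, and was lost in 5 other settings (0.0394 to 0.130). COL6A1, of the microfibrils, was -0.55 ± 0.16 in PRMT5KO (adjusted p = 0.0302), lost without replicate 1 or 2 of sgNeg or any of sgPRMT5-2 and with the replicate block (0.00181 to 0.117). COL7A1, of the anchoring fibrils, was -0.47 ± 0.14 (adjusted p = 0.0364), lost without replicate 2 or 3 of sgNeg, 3 of sgPRMT5-1 or any of sgPRMT5-2 and with upper-quartile scaling (0.0119 to 0.201). In the means of all 4 sgRNAs, COL4A1 and COL4A2 thus lay under sgNeg and COL4A5 and COL4A6 above it, as P3H2 did.

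**Figure D4:**
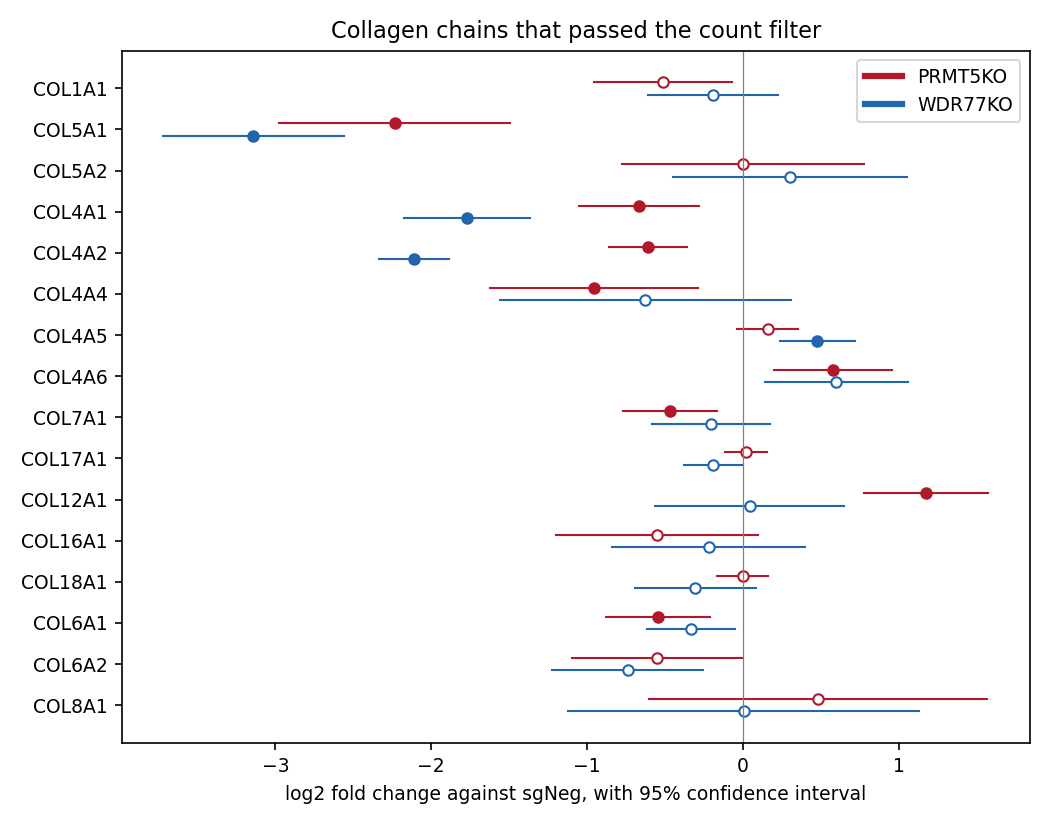
The log2 fold change against sgNeg (horizontal axis) with its 95% confidence interval for the 16 collagen chains tested, in PRMT5KO (red) and WDR77KO (blue), which share the 3 sgNeg libraries. Filled points are past the threshold; COL5A1 lies lowest, at -2.24 and -3.14, and COL12A1 in PRMT5KO highest, at 1.18.

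Of 25 partners and other collagen-modifying enzymes listed, 19 were tested. In PRMT5KO 2 rose and 4 fell, where 17.0% of all genes passed, and in WDR77KO 1 fell, where 3.39% did, so that the WDR77KO share was near that of all genes. Of the 6 calls in PRMT5KO, only PCOLCE held in every leave-out: 1 passed without replicate 2 of sgNeg, and 2 without replicate 1 of sgNeg or replicate 1, 2 or 3 of sgPRMT5-2. With the replicate block 3 passed. In WDR77KO 2 passed without replicate 1 of sgWDR77-1 or in a fit of all 15 libraries. Their median log2 fold change was -0.10 and -0.15, beside -0.0058 and 0.0029 over all genes. PXDN, the peroxidase that makes the sulfilimine cross-links of collagen IV, separated the knockouts. It stood at 48.9 ± 6.82 CPM in sgNeg, 58.2 ± 8.0 with sgPRMT5-1, 79.9 ± 1.68 with sgPRMT5-2, 23.5 ± 3.54 with sgWDR77-1 and 24.2 ± 0.406 with sgWDR77-2. PXDN fell by 1.03 in WDR77KO (SE 0.13, adjusted p = 0.000148), and the knockouts differed by 1.51 ± 0.13 (adjusted p = 2.3e-06). Its rise of 0.47 ± 0.15 in PRMT5KO (adjusted p = 0.0484) was lost without replicate 1, 2 or 3 of sgNeg or of sgPRMT5-2, and with 4 of 8 other settings (0.00192 to 0.210). PCOLCE, which enhances procollagen processing, fell by 1.05 in PRMT5KO (SE 0.21, adjusted p = 0.00764), at 6.23 ± 0.263 CPM in sgNeg. COLGALT1, which adds galactose to hydroxylysine, rose by 0.28 ± 0.066 in PRMT5KO (adjusted p = 0.0146), except without replicate 2 of sgNeg (0.0803, range from 0.00640). CRTAP, the partner of P3H1, was -0.38 ± 0.11 in PRMT5KO (adjusted p = 0.0320), a call lost without replicate 1 or 2 of sgNeg, without replicate 1, 2 or 3 of sgPRMT5-2 and with the replicate block (0.00314 to 0.157). SEC23A, a coat protein of procollagen export, was -0.36 ± 0.10 (adjusted p = 0.0276), lost without replicate 1 or 2 of sgNeg or any of sgPRMT5-2 (0.00608 to 0.110). LOXL4, another lysyl oxidase, was -1.81 ± 0.59 (adjusted p = 0.0491), lost when any 1 library other than replicate 1 of sgPRMT5-1 was left out, and in 4 other settings (0.0150 to 0.154). Its counts were low, at 2.04 ± 0.526 CPM in sgNeg, 1.02 ± 0.602 with sgPRMT5-1 and 0.428 ± 0.395 with sgPRMT5-2.

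Because several of these enzymes are known targets of hypoxia-inducible factors, 16 other targets were listed, and all 16 were tested. In PRMT5KO 3 rose and none fell, where 17.0% of all genes passed, a share close to that of the list; 7 passed without replicate 1 of sgPRMT5-1, 6 without its replicate 2, 6 with upper-quartile scaling and 5 with no filter. By sgRNA, 5 rose and 6 fell with sgPRMT5-2 (40.1% of all genes), 3 rose with sgPRMT5-1 (3.76%) and 3 fell with sgWDR77-1 (2.71%). With sgWDR77-2, 0 passed by limma voom (4.97% of all genes), and 3 were at an unadjusted p under 0.05. By limma voom, and by limma-trend, 0 passed in WDR77KO (3.39% of all genes), where 3 were at an unadjusted p under 0.05; 1 passed without replicate 1 of either WDR77 sgRNA and 2 in a fit of all 15 libraries. The median log2 fold change was 0.039 in PRMT5KO and -0.17 in WDR77KO, beside -0.0058 and 0.0029 over all genes. VEGFA, the endothelial growth factor, rose by 0.49 ± 0.095 in PRMT5KO (adjusted p = 0.00648), and HK2, a hexokinase, by 0.37 ± 0.068 (adjusted p = 0.00563), each in 6 of 6 libraries. LDHA, lactate dehydrogenase, rose by 0.28 ± 0.071 (adjusted p = 0.0184), except without replicate 1 or 2 of sgNeg (0.00491 to 0.0918). Between the knockouts 7 were higher and 1 lower in PRMT5KO, where 14.0% of all genes passed, with a median of 0.32 beside 0.018 over all genes. These 8 were 4 without replicate 2 of sgWDR77-1. Within WDR77KO the median against sgNeg was -0.36 with sgWDR77-1 and 0.045 with sgWDR77-2.

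Of 14 genes listed for the co-substrates and iron of this enzyme class, or belonging to it, 13 were tested. In PRMT5KO 1 rose and 3 fell, where 17.0% of all genes passed. None of the 4 calls was left without replicate 1 of sgNeg, 1 without replicate 2 of sgNeg, and 2 without replicate 3 of sgNeg or of sgPRMT5-1 or without replicate 1, 2 or 3 of sgPRMT5-2. By limma voom, and by limma-trend, 0 passed in WDR77KO (3.39% of all genes), where 1 was at an unadjusted p under 0.05. Their median log2 fold change was -0.045 in PRMT5KO and 0.054 in WDR77KO. IDH2, the mitochondrial isocitrate dehydrogenase that yields 2-oxoglutarate, stood at 86.0 ± 17.7 CPM in sgNeg, 53.7 ± 10.2 with sgPRMT5-1 and 20.7 ± 1.41 with sgPRMT5-2. It fell by 1.37 in PRMT5KO (SE 0.30, adjusted p = 0.0109), except without replicate 1 of sgNeg (0.0712, range from 3.3e-06). P4HTM, a transmembrane prolyl 4-hydroxylase, fell by 0.65 in PRMT5KO (SE 0.15, adjusted p = 0.0155), except without replicate 1 or 2 of sgNeg (0.00707 to 0.0887). IDH1, the cytosolic enzyme, stood at 272 ± 23.8 CPM in sgNeg, 238 ± 25.5 with sgPRMT5-1 and 134 ± 0.675 with sgPRMT5-2. It was -0.61 ± 0.20 in PRMT5KO (adjusted p = 0.0465), a call lost without replicate 1, 2 or 3 of sgNeg, 3 of sgPRMT5-1 or 1, 2 or 3 of sgPRMT5-2, with the replicate block and with upper-quartile scaling (0.000112 to 0.159). OGFOD1, a dioxygenase that hydroxylates a ribosomal protein, rose by 0.39 ± 0.13 in PRMT5KO (adjusted p = 0.0492), which was lost without any 1 of those 7 libraries, with library totals, with median-of-ratios scaling or with no filter (0.00745 to 0.189).

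Genes beside P3H2 on chromosome 3 were compared with it. Of 11 other genes within 500 kb of the P3H2 gene, 4 passed the filter: TP63, CLDN1, CLDN16 and IL1RAP. The outermost annotated start site of TP63 is 491 kb downstream, with 59.5 kb between the gene bodies. In SCC the predominant isoform is ΔNp63α, the paper states, and the start site of that isoform was not located here. Those of CLDN1, CLDN16 and IL1RAP are 200, 200.1 and 391.6 kb upstream in the direction of P3H2. None of these 4 (0 by limma voom) passed against sgNeg in PRMT5KO or in WDR77KO, where 17.0% and 3.39% of all genes passed. Of the 4, 0 and 1 were at an unadjusted p under 0.05. Without replicate 1 of sgPRMT5-1, IL1RAP passed in PRMT5KO (0.0374, up to 0.444 elsewhere), and CLDN1 passed in WDR77KO without replicate 1 of sgWDR77-2 and in a fit of all 15 libraries (0.0132 to 0.585). CLDN1, a tight-junction claudin, stood at 357 ± 83.1 CPM in sgNeg and at 691 ± 70.2 CPM with sgWDR77-1, a rise of 1.00 ± 0.15 (adjusted p = 0.00619) that did not pass without replicate 3 of sgNeg (0.0648, range from 6.4e-06). With sgWDR77-2 it stood at 406 ± 93.5 CPM, 0.18 ± 0.16 against sgNeg (adjusted p = 0.589). Between the WDR77 sgRNAs the CLDN1 difference was -0.80 ± 0.16 and did not pass (adjusted p = 0.117). It did pass with all 15 libraries in one fit, with no filter and without replicate 1 of sgWDR77-1 (0.000180 to 0.540). CLDN1 was lower in PRMT5KO than in WDR77KO, -0.71 ± 0.17 (adjusted p = 0.0141), the reverse of P3H2. IL1RAP, a chain of the interleukin-1 receptor, was also lower in PRMT5KO than in WDR77KO, -0.46 ± 0.13 (adjusted p = 0.0244), a call lost without replicate 1, 2 or 3 of sgPRMT5-2 (0.00139 to 0.0624). With sgPRMT5-2, IL1RAP fell by 0.55 (SE 0.090, adjusted p = 7.3e-05). CLDN16, another claudin, was -1.06 ± 0.42 with sgPRMT5-2 (adjusted p = 0.0485), a call lost without replicate 1 or 3 of sgNeg or 1 or 2 of sgPRMT5-2, with all 15 libraries in one fit, with no filter and with upper-quartile scaling (0.0158 to 0.230). CLDN16 had only 5 to 42 reads per library. Between the PRMT5 sgRNAs, 2 of the 4 passed, IL1RAP and TP63, both lower with sgPRMT5-2, where 19.2% of all genes passed. Without replicate 3 of sgPRMT5-1 all 4 passed, with CLDN1 (0.000114, up to 0.922 elsewhere) and CLDN16 (0.0163, up to 0.716 elsewhere) added. The TP63 call (-0.23 ± 0.081, adjusted p = 0.0495) was lost without replicate 1 or 2 of sgPRMT5-1 or 1, 2 or 3 of sgPRMT5-2, with all 15 libraries in one fit and with upper-quartile scaling (4.0e-08 to 0.255). TP63, the squamous lineage factor, ran from 311 to 528 CPM and passed against sgNeg with none of the 4 sgRNAs by limma voom. With 1 of them, sgWDR77-1 (0.33 ± 0.14, adjusted p = 0.222), it was at an unadjusted p under 0.05. The sgPRMT5-2 value passed with library totals (0.0364 to 0.881). The antisense gene P3H2-AS1, inside the P3H2 gene, had 0 to 3 reads per library, and P3H2 shares exon bases with no other gene of GENCODE 44.

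**Figure D5:**
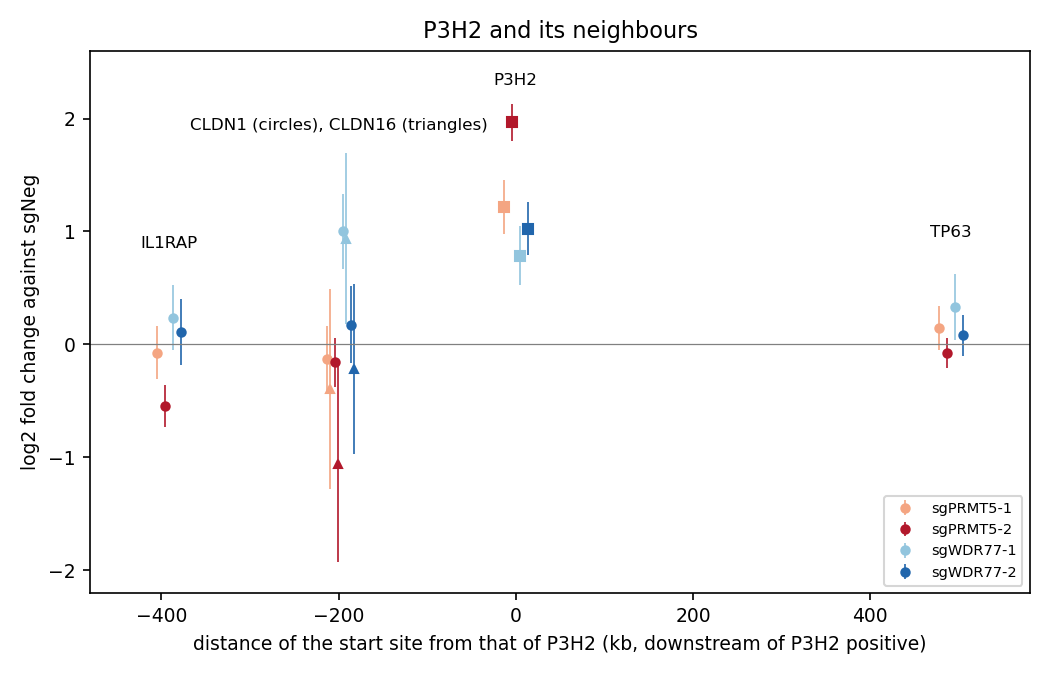
The log2 fold change against sgNeg (vertical axis) with its 95% confidence interval for P3H2 (squares) and the 4 neighbours that passed the filter. Genes are placed by distance of the outermost annotated start site from that of P3H2 in kb. Points of the 4 sgRNAs are spread slightly sideways to keep them apart; P3H2 lies from 0.79 to 1.97 and is not tested, and IL1RAP with sgPRMT5-2 lies at -0.55.

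Among 8955 genes with a mean of at least 10 CPM, the 5 most like P3H2 over the 15 libraries, by Pearson r of log2 CPM, were F3 (r = 0.97), GADD45A (0.96), PVR (0.96), SEC14L1 (0.96) and ETF1 (0.96). F3 is tissue factor, and GADD45A is a DNA damage and stress response gene. PVR is a poliovirus receptor of the nectin family, and ETF1 is a translation release factor. F3 stood at 421 ± 29.3 CPM in sgNeg, 541 ± 68.7 with sgWDR77-1, 676 ± 97.3 with sgWDR77-2, 677 ± 31.9 with sgPRMT5-1 and 1122 ± 22.2 with sgPRMT5-2. The lowest r were those of ASS1 (-0.97), the argininosuccinate synthase, and EPB41L1 (-0.96). Of all 8955 genes compared, 89 had an r of at least 0.9 and 46 an r of at most -0.9. Spearman's rho of the 5 highest ran from 0.93 to 0.99, and without the 2 libraries farthest from the median of P3H2 their r ran from 0.94 to 0.96. These libraries fall into 5 conditions, so the values follow the condition means, and with each condition's mean taken out r was 0.76 for F3, 0.43 for GADD45A, 0.74 for PVR, 0.40 for SEC14L1, 0.67 for ETF1, -0.82 for ASS1 and -0.55 for EPB41L1. Of the other collagen enzymes, PLOD3 (0.66) and LOXL2 (0.65) had the highest r with P3H2 and P3H1 (-0.76) the lowest. With each condition's mean taken out, r was 0.75 for PLOD3, but -0.28 for LOXL2 and -0.28 for P3H1, and the lowest were LOX (-0.79) and P4HA1 (-0.71). Some libraries of different conditions deviated together over genes, such as replicate 3 of sgPRMT5-1 and replicate 1 of sgWDR77-2 (r = 0.62). Both were the highest of their conditions for P3H2 and for PLOD3. The r with condition means taken out therefore does not rest on independent libraries.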

How the data were processed

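RNA from 15 HSC-5 libraries was read as counts per gene, as deposited by the authors, who used STAR for the alignment to hg38 and htseq-count for the counting. Neither the strand setting nor the annotation release is given, so genes that share exon bases with another gene are uncertain. The 5 summary entries were left out. They held 2.75% to 7.16% (no feature), 7.09% to 7.93% (ambiguous) and 9.49% to 13.1% (not unique) of the listed reads. The no-feature share was 7.16% in replicate 2 of sgNeg, 6.04% and 5.70% in replicates 2 and 3 of sgWDR77-1, and at most 4.26% elsewhere. By chi-square per degree of freedom, replicate 1 of sgWDR77-1 differed from its replicates 2 and 3 by 13.7 and 19.4. Those replicates differed from each other by 3.42. The pairs of sgNeg, used in every comparison with the control, stood at 9.94, 4.11 and 6.96. Those of sgPRMT5-1 stood at 2.10, 6.50 and 5.78, and those of sgWDR77-2 at 5.34, 7.33 and 2.11. The sgPRMT5-2 pairs were closest, at 1.61, 2.56 and 1.58. The part of these differences in the values and in the numbers of calls was not tested. Genes were tested by voom in limma 3.58.1 under R 4.3.3 (limma voom), after TMM scaling (trims of 0.3 and 0.05), for genes with a mean normalized count of at least 3, with only the compared libraries in the fit. P-values were adjusted by Benjamini-Hochberg over all genes tested, with a threshold of 0.05. CPM were scaled over all 15 libraries, and exon lengths, positions and overlaps came from GENCODE 44.

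The genes and lists were chosen with earlier results of these data known. Named genes were all 10 enzymes, the larger changes of each list past the threshold in a pooled knockout (at most 4 with full values), genes within 500 kb of P3H2 that passed the filter, the 5 highest and 2 lowest correlations with P3H2 (log2 CPM, prior count 2), and fixed cell type markers. Alternatives were library totals, median-of-ratios or upper-quartile scaling, no filter or a mean count of at least 10, limma-trend, all 15 libraries in one fit, a replicate block, and leaving out each library. DESeq2, the tool of the authors, was not run here.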

Additional observations from a re-analysis of the deposited data

Results flagged for a closer look

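PLOD3 in WDR77KO held a library far from the others: sgWDR77-2 replicate 1 stood at 72.4 CPM, the next at 57.4 CPM, a gap of 0.66 of the whole range and past the critical value of Dixon's test for 6 samples. This was 1 of 18 groups examined. The groups share libraries across genes, and each pools both sgRNAs of a target, so they are not independent single samples as the test takes them. The cause was not tested.

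Between PRMT5KO and WDR77KO, limma voom found log2 differences past the threshold for P3H2 (0.7089), PLOD3 (0.4729) and LOXL2 (0.3346), the last lost when any of 10 libraries was left out, with library totals, with median-of-ratios scaling and with the replicate block. Between sgPRMT5-2 and sgPRMT5-1, which target the same gene, it found differences for P3H2 (0.7508), P3H1 (-0.3454), P4HA1 (-0.437), PLOD1 (-0.3198) and PLOD2 (-0.2982). Of these calls, only that of P3H2 held in every setting. The others were lost in a fit of all 15 libraries, those of P3H1 and PLOD2 also in several leave-outs, and that of P3H1 with no filter.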

How the results depend on the processing

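No called value of the collagen enzymes, the sgRNA targets or the neighbours of P3H2 changed sign under any alternative. The same held for the named list genes in the pooled comparisons. This does not cover the cell type markers or list calls by single sgRNA. P3H2 and PLOD3 between the knockouts, P3H2 between the PRMT5 sgRNAs, LOXL2 in PRMT5KO, LOX in WDR77KO and all 5 calls with sgPRMT5-2 kept their side of the threshold in every setting, all leave-outs included. The number of collagen enzymes called moved as follows, and the causes were not tested. In PRMT5KO it went from 4 to 3 with library totals or median-of-ratios scaling, to 2 with no filter on low counts or the replicate block, and to 1 to 5 when a library was left out. Between the PRMT5 sgRNAs it went from 5 to 1 with all 15 libraries in one fit, to 4 with no filter, to 6 with limma-trend or the replicate block, and to 3 to 7 in leave-outs. Between the knockouts it went from 3 to 2 with library totals, median-of-ratios scaling or the replicate block, and to 2 to 3 in leave-outs. With sgPRMT5-2 against sgNeg it went from 5 to 6 with library totals, and to 5 to 6 in leave-outs. With sgWDR77-1 it went from 1 to 2 with all 15 libraries, and to 0 to 1 in leave-outs. With sgWDR77-2 it went from 1 to 2 with all 15 libraries, no filter or upper-quartile scaling, to 0 with the replicate block, and to 0 to 2 in leave-outs. Between the WDR77 sgRNAs it went from 0 to 1 with all 15 libraries.

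Over all genes, leave-outs gave 483 to 3562 calls in PRMT5KO (2397 with all libraries; fewest without sgNeg replicate 1), 199 to 677 in WDR77KO (477; fewest without sgNeg replicate 3) and 876 to 3178 between the knockouts (1962). The other settings gave 1701 to 3210 in PRMT5KO, 333 to 1193 in WDR77KO and 1491 to 3804 between the knockouts, each fewest with the replicate block and most with all 15 libraries in one fit. The replicate numbers do not pair libraries: 30 pairs with the same number across conditions had a median r of 0.0055 (-0.517 to 0.428). Only 5 of 15 libraries were closest to their own number, so the paired fit with the replicate block is an alternative only. Some libraries with unlike numbers did deviate together from their condition means. Replicate 1 of sgWDR77-2 had r = 0.62 with replicate 3 of sgPRMT5-1 and 0.43 with replicate 3 of sgNeg. The part of this shared variation in the results was not tested. By library totals alone, the percent of calls that are higher, PRMT5KO vs sgNeg, was 34.0% in place of 51.3%. Scaling moved the median log2 fold change of all genes by at most 0.084. Changes in LOX rest on 7 to 64 reads per library. The cause of the differences between sgRNAs was not tested.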
